A study of Mus musculus with 24 samples.

Results

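The interferon-induced genes Irf7, Ifit1, Ifit2, Ifit3, Isg15, Gbp2, Gbp3, Igtp and Irgm1 were followed in 4 regions of the mouse gut with and without a microbiota. The members are every probe set whose annotation gave 1 of these 9 symbols and no other gene. The genes were named with earlier results of these data known, though the choice of probe sets uses no signal. All 9 genes were on the array, through 10 of its 12488 probe sets. Irf7 had a pair of probe sets and each other gene had 1. Of these, 9 probe sets for 8 genes were bright enough to be tested. The Ifit2 probe set was not: it was above 51.5, the signal a tested probe set had to exceed on at least 3 arrays, on 1 array only.

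Total RNA from whole-thickness pieces of tissue was measured on 24 Affymetrix arrays in 8 groups of 3. The groups are germ-free corpus, jejunum, descending colon and rectum, from mice without a microbiota, and conventional corpus, jejunum, descending colon and rectum, from mice that carry one. The corpus is a part of the stomach outside the antrum. Descending colon and rectum adjoin each other at the end of the tract. Strain, sex, age and any agent given to the mice are not given in the sources used here. Which arrays come from the same mouse is not stated, and the p-values below reflect only how far arrays of a group differ.

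Interferons are signalling proteins that cells release when they sense viruses and other microbes. Type I interferons (interferon alpha and beta) and interferon gamma bind different receptors, and both act through JAK kinases at those receptors. Many of the genes they induce carry a DNA element built from GAAA repeats, the interferon-stimulated response element, which Irf9 and other interferon regulatory factors bind. In the gut, epithelial and immune cells of the mucosa both carry interferon receptors. The genes followed here fall into 3 roles. Irf7 is a transcription factor that amplifies production of type I interferons. Ifit1, Ifit2 and Ifit3 bind foreign RNA or partner proteins that do so, and Isg15 is a ubiquitin-like protein attached to other proteins during the antiviral response. Gbp2, Gbp3, Igtp and Irgm1 are GTPases, made in quantity after interferon gamma, that act on the vacuoles in which bacteria and parasites live inside cells.

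The genes lie on 5 chromosomes of the mouse genome (RefSeq annotation, build GRCm38.p6). Ifit1 (chr19:34640889-34650009), Ifit2 (chr19:34550550-34576534) and Ifit3 (chr19:34583119-34588982) are neighbours. So are Gbp2 (chr3:142620663-142638008) and Gbp3 (chr3:142560016-142573213). Igtp (chr11:58199556-58207592) and Irgm1 (chr11:48865245-48871420) share chromosome 11, while Irf7 lies at chr7:141263183-141266499 and Isg15 at chr4:156199424-156200818. The array's probe sequences were not used here.

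Promoter windows of 250 bases before and 50 bases after the transcription start, from RefSeq, were matched for all 9 genes, with 11 windows because Ifit2 and Gbp3 have a pair each. The windows below are shown because Isg15, Gbp2 and Irf7 are the members that differed between regions, and Gbp3 and Igtp are those furthest apart between germ-free and conventional jejunum. Capitals mark the core of the interferon-stimulated response element, searched as GAAA and GAAA separated by any 2 bases, on either strand, so that a match on the other strand reads as TTTC.
Isg15, chr4:156200769-156201068, minus strand: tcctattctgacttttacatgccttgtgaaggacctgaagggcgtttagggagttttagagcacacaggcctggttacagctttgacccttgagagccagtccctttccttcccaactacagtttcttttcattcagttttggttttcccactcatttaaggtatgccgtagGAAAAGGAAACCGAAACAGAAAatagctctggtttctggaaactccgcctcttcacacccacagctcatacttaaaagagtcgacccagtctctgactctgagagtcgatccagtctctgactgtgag
Gbp2, chr3:142620413-142620712, plus strand: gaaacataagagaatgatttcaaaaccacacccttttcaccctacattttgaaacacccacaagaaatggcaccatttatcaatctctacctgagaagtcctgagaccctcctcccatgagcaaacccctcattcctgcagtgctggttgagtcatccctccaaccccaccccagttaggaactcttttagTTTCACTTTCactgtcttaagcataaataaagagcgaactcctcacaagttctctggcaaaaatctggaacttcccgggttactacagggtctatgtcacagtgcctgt
Gbp3, chr3:142559794-142560093, plus strand: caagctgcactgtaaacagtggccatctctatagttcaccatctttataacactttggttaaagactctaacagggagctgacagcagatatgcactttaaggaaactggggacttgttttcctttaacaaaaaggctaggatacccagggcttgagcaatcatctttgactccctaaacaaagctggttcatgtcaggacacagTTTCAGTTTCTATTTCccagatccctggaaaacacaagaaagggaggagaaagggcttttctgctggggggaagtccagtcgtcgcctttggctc
Igtp, chr11:58199306-58199605, plus strand: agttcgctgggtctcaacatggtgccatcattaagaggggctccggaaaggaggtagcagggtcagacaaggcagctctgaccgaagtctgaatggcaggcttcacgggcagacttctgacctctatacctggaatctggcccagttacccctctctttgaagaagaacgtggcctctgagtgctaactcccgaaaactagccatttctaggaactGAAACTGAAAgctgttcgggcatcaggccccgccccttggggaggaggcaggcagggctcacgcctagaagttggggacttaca
Irf7, chr7:141266375-141266674, minus strand: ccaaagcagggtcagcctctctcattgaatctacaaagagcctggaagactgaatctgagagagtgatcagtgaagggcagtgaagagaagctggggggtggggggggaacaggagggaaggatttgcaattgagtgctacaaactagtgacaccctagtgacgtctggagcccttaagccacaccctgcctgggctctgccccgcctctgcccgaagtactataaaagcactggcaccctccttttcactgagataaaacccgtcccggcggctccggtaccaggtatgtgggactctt
This GAAA pair was present in 7 of the 11 windows, for 7 of the 9 genes, against 3.44% of all 32851 mouse promoter windows in the same table. Isg15 had 3 overlapping matches, Ifit1, Ifit3, Gbp3 and Irgm1 had 2 each, and Gbp2 and Igtp had 1. In the windows of Irf7 and Ifit2 these letters did not occur. A match describes the letters of the window and does not show a binding site.

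All signals below are the deposited linear intensities, already scaled by the authors to a common mean. The median signal of an array was between 68.6 and 103.5. Signals under 21.2, a floor to which low values were raised before log2 was taken, made up 17.5% to 28.5% of an array. For 3 libraries the region markers went against the label. Conventional jejunum 3 had Apoa4, a lipid-transport gene of the small intestine, at 13.8 and Hoxb13, a gene of the hindgut, at 1626. Conventional rectum 1 had Apoa4 at 2766 and Hoxb13 at 41.7, and germ-free corpus 3 had Atp4a, the gastric proton pump, at 176 and Hoxb13 at 1399. Markers of another region were also present in germ-free descending colon 1 (Fabp2, a small-intestinal fatty acid binding protein, at 4005) and germ-free rectum 1 (Atp4a at 1968). All libraries were kept under their labels, and results were repeated without the 3 and without all 5.

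In jejunum, 8 of the 9 tested probe sets had a lower fitted level in germ-free than in conventional mice, but none passed the test. Their median log2 difference, germ-free minus conventional, was -0.62, against -0.02 over all 9033 probe sets tested. Limma called 0 of 9 at an adjusted p under 0.05 (0.465% of all probe sets tested were called), and 2, Gbp3 and Igtp, had an unadjusted p under 0.05. In corpus (0% called), descending colon (0.0111% called) and rectum (0.0111% called) the members called were likewise 0, with 0 at an unadjusted p under 0.05 in each.

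**Figure D1:**
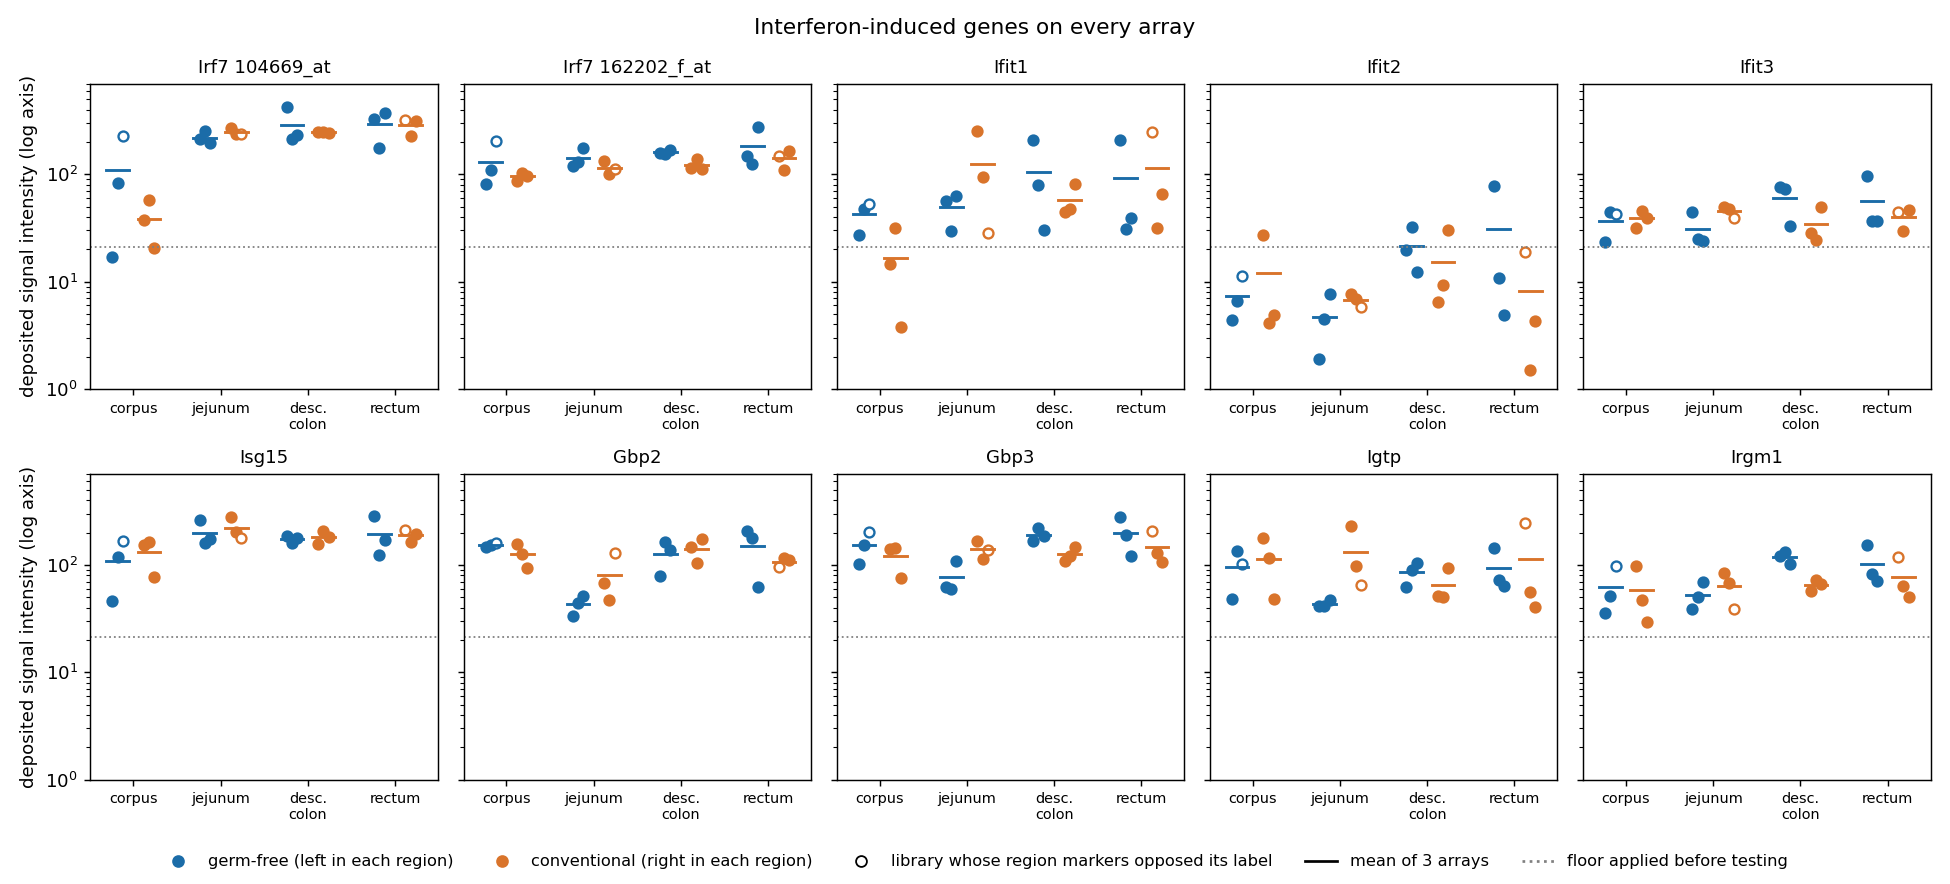
Deposited signal intensity (log axis) of the 10 probe sets on each of the 24 arrays by region, germ-free left and conventional right; points are arrays, bars the mean of 3 arrays, the dotted line the floor of 21.2, and open points the 3 libraries whose region markers opposed their labels. The first Irf7 probe set is lowest in corpus, Gbp2 is lowest in jejunum, and most Ifit2 points lie under the floor.

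Among the GTPases, Gbp3 (probe set 103202_at) gave signals of 62.6, 59.6 and 108.3 in germ-free jejunum, against 165.8, 114.4 and 139.1 in conventional jejunum. Every germ-free array lay under every conventional one, by a small margin between 108.3 and 114.4. The log2 difference was -0.90 ± 0.34 (SE, 95% interval -1.62 to -0.18), which limma gave an unadjusted p of 0.0163 and an adjusted p of 0.245. Igtp (160933_at), also known as Irgm3, gave 41.1, 41.7 and 46.7 in germ-free jejunum, against 231.9, 98.8 and 65.1 in conventional jejunum. The germ-free arrays were close together and all lower, while the conventional arrays spread over a wide range. The log2 difference was -1.41 ± 0.60 (SE, 95% interval -2.66 to -0.15), with an unadjusted limma p of 0.0299 and an adjusted p of 0.313. Without conventional jejunum 3 and the other 2 opposed libraries it was -1.81 ± 0.53 (SE), with an adjusted limma p of 0.149. Without conventional jejunum 1, the array at 231.9, it was -0.90 (adjusted limma p 0.566). These 2 of 9 members were lower on all germ-free jejunum arrays without overlap, as were 8.59% of all probe sets tested. Without the 3 opposed libraries 4 of 9 were, as were 13.1% of all probe sets.

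Gbp2 (104597_at) gave 33.3, 44.2 and 51.9 in germ-free jejunum, against 67.3, 47.1 and 128.1 in conventional jejunum. The groups overlapped in that the conventional array at 47.1 lay inside the germ-free range; the highest conventional value came from conventional jejunum 3. Gbp2 had a log2 difference of -0.80 ± 0.40 (SE), adjusted limma p 0.407. Without the 3 opposed libraries it was -0.41 ± 0.42 (SE, adjusted limma p 0.797). Irgm1 (97409_at), which works together with Igtp and its relatives, gave 38.9, 50.5 and 68.8 in germ-free jejunum and 84.6, 68.4 and 39.1 in conventional jejunum. These groups overlapped throughout, with a log2 difference of -0.25 ± 0.45 (SE).

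Of the antiviral genes, Ifit1 (100981_at) gave 56.2, 29.7 and 62.5 in germ-free jejunum, against 253.8, 94.1 and 28.4 in conventional jejunum. The lowest of these values, 28.4, came from conventional jejunum 3. The log2 difference was -0.90 ± 0.83 (SE) over all arrays and -1.71 ± 0.75 (SE) without the 3 libraries, where the unadjusted limma p was 0.035 and the adjusted p 0.359. Ifit3 (93956_at) gave 44.2, 24.7 and 23.7 in germ-free jejunum and 49.5, 48.0 and 39.2 in conventional jejunum, values near the floor of 21.2. Isg15 (98822_at) gave 262.8, 159.7 and 176.2 in germ-free jejunum and 279.2, 203.7 and 179.8 in conventional jejunum, and these groups overlapped over most of their range. Its log2 difference was -0.16 ± 0.39 (SE, 95% interval -0.96 to 0.65), an interval that covers differences of over 1.5-fold either way.

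Irf7 gave 212.0, 250.8 and 196.7 in germ-free jejunum and 270.3, 239.4 and 239.1 in conventional jejunum by its first probe set (104669_at), with overlap. Its second probe set (162202_f_at), of a type that can match several related transcripts, gave 119.9, 128.9 and 177.2 in germ-free jejunum and 133.6, 101.6 and 112.0 in conventional jejunum. The 2 probe sets had log2 differences of opposite sign, -0.19 ± 0.54 and 0.28 ± 0.30 (SE), neither past the test.

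Conventional jejunum 1 held the highest signal of its group for 8 of the 9 tested members, and without it the log2 difference of Gbp3 was -0.77. Summed signals of 17 probe sets for 11 leukocyte marker genes ran from 1397 to 2077 in germ-free jejunum. They ran from 3336 to 4386 in conventional jejunum, with no overlap. In jejunum, 14 of 14 tested leukocyte probe sets had a negative difference, 3 of them called lower, with a median log2 difference of -1.11. The called markers included Cd53, a leukocyte membrane protein, with a log2 difference of -2.52 ± 0.56 (SE, adjusted limma p 0.0444). Probe sets for the T and NK cell list summed to between 265 and 397 in germ-free jejunum, against 464 to 551 in conventional jejunum. Only 4 of these 15 probe sets were bright enough to be tested; limma called 0 of them in jejunum and 0 had an unadjusted p under 0.05. One of the Ptprc probe sets (CD45) stayed at or under 3.9 on all arrays, while another reached 97.5. The B and plasma cell list summed to between 887.8 and 1817 in germ-free jejunum, against 2571.5 to 3324 in conventional jejunum. Its 9 tested probe sets were all negative (median log2 difference -1.09), with 0 called. Macrophage and dendritic cell sums overlapped, at 4443 to 5754.5 in germ-free and 5111 to 7269.6 in conventional jejunum. Of their 11 tested probe sets, 8 were negative and 0 called. The part of these cells in the member values was not tested. In whole tissue, fewer cells of a type and less RNA per cell cannot be told apart.

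In descending colon the members' median log2 difference was 0.42, against 0.07 over all probe sets tested, and 7 of 9 were positive. Irgm1 gave 122.2, 133.5 and 102.6 in germ-free descending colon, against 57.7, 72.6 and 66.5 in conventional descending colon. All 3 germ-free arrays were higher, and the log2 difference was 0.86 ± 0.45 (SE, 95% interval -0.07 to 1.80), adjusted limma p 0.645. Gbp3 gave 166.7, 219.4 and 184.8 in germ-free descending colon, against 108.9, 121.5 and 147.8 in conventional descending colon. Here too the groups did not overlap, in the opposite direction to jejunum, and the log2 difference was 0.60 ± 0.34 (SE, adjusted limma p 0.664). The second Irf7 probe set was the third member without overlap, with 158.8, 156.3 and 169.9 in germ-free descending colon and 113.8, 138.2 and 112.8 in conventional descending colon. Its log2 difference was 0.42 ± 0.30 (SE), or 0.24 after array medians were equalised. Across the alternative settings the lowest log2 differences in descending colon were 0.67 for Irgm1 and 0.42 for Gbp3. These 3 of 9 members were higher on all germ-free arrays, as were 8.4% of all probe sets tested.

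The remaining members overlapped between the states in descending colon. Ifit3 gave 75.6, 72.8 and 33.0 in germ-free descending colon and 28.3, 24.3 and 49.9 in conventional descending colon. Ifit1 gave 208.1, 79.9 and 30.6 in germ-free descending colon and 45.0, 47.7 and 81.2 in conventional descending colon, so that 1 germ-free array was both far above the rest and the one with small-intestinal Fabp2. Isg15 gave 184.4, 158.6 and 177.6 in germ-free descending colon and 158.0, 208.1 and 181.5 in conventional descending colon, a log2 difference of -0.07 ± 0.39 (SE). Gbp2 gave 79.3, 162.6 and 139.1 in germ-free descending colon and 145.9, 105.2 and 174.9 in conventional descending colon. It was thus on the negative side here, at -0.19 ± 0.40 on the log2 scale (SE), while its neighbour Gbp3 was on the positive side. Igtp gave 61.8, 90.4 and 103.5 in germ-free descending colon and 51.3, 50.5 and 93.3 in conventional descending colon. The first Irf7 probe set gave 420.7, 215.6 and 232.2 in germ-free descending colon and 249.8, 249.8 and 243.2 in conventional descending colon. The conventional arrays were close together, and the germ-free arrays lay on both sides of them, with the highest again on germ-free descending colon 1. The leukocyte sum ran from 1965 to 2840 in germ-free descending colon and from 2976 to 9999 in conventional descending colon. The value of 9999 was that of a single array, and the gap between 2840 and 2976 was small. Of 14 tested leukocyte probe sets, 12 were negative and 2 positive (median log2 difference -0.48), with 0 called by limma. Here too, the part of leukocytes was not tested.

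**Figure D2:**
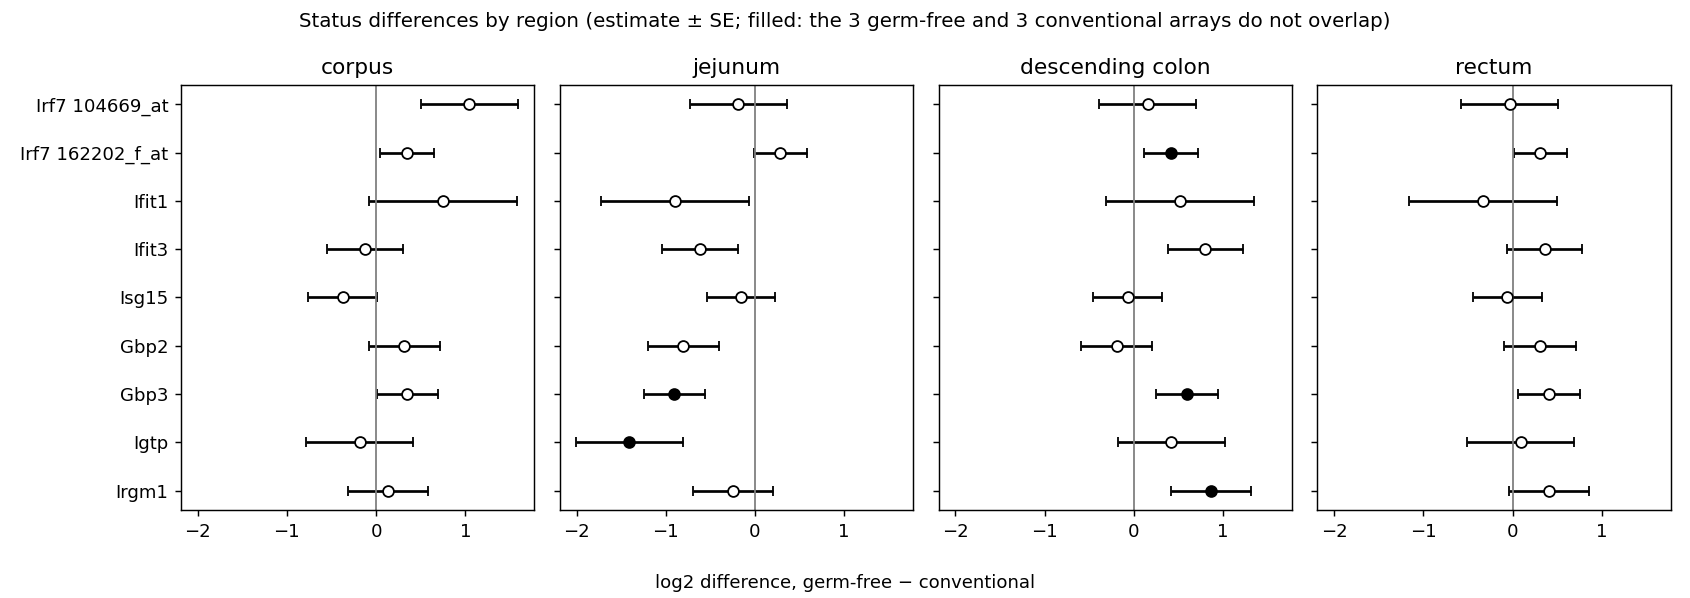
Fitted log2 difference, germ-free minus conventional, ± SE for the 9 tested probe sets in the 4 regions; filled points mark members whose 3 germ-free and 3 conventional arrays did not overlap. In jejunum 8 of 9 points lie left of 0, in descending colon 7 of 9 lie right of it, and no point passed the test.

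In corpus and rectum no tested member separated the states without overlap, where 13.6% and 11.6% of all probe sets did so in either direction. Median member differences were 0.32 in corpus and 0.30 in rectum, against 0.04 and 0.06 over all probe sets. In corpus, Irf7 by its first probe set gave 16.9, 82.7 and 229.7 in germ-free mice and 37.4, 57.8 and 20.5 in conventional mice. The highest value is that of germ-free corpus 3, a library whose region markers opposed its label. The log2 difference was 1.05 ± 0.54 (SE, adjusted limma p 0.583). Without germ-free corpus 1 it became 1.95 ± 0.42 (SE, adjusted limma p 0.0251), a fit in which germ-free corpus 3 is 1 of the 2 germ-free arrays. Without the 3 opposed libraries the median member difference in corpus was -0.02, with 4 of 9 positive.

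Among the GTPases in corpus, Gbp2 gave 146.6, 152.1 and 160.7 in germ-free mice and 156.3, 125.8 and 94.2 in conventional mice, with a log2 difference of 0.32 ± 0.40 (SE). Gbp3 gave 102.9, 153.5 and 204.0 in germ-free corpus and 142.3, 144.9 and 75.6 in conventional corpus. In both genes the highest germ-free array was germ-free corpus 3 and the lowest conventional array was conventional corpus 3. Igtp gave 48.6, 136.1 and 102.1 in germ-free corpus and 178.3, 115.0 and 48.2 in conventional corpus. Irgm1 gave 35.6, 51.7 and 97.9 in germ-free corpus and 97.8, 47.4 and 29.4 in conventional corpus. For both the ranges were almost the same in the 2 states, and the log2 differences were -0.18 ± 0.60 and 0.13 ± 0.45 (SE). Of the antiviral genes, Isg15 gave 45.7, 117.4 and 166.2 in germ-free corpus and 154.3, 164.2 and 76.9 in conventional corpus, a log2 difference of -0.38 ± 0.39 (SE). Ifit1 gave 27.0, 47.5 and 52.8 in germ-free corpus and 14.6, 31.7 and 3.8 in conventional corpus, where 2 of the 3 conventional arrays were under the floor. Its log2 difference, with those values raised to the floor, was 0.75 ± 0.83 (SE).

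In rectum, Gbp3 gave 281.6, 189.6 and 122.3 in germ-free mice and 206.6, 128.2 and 106.0 in conventional mice, a log2 difference of 0.41 ± 0.34 (SE, adjusted limma p 0.982). Igtp gave 145.3, 72.4 and 64.1 in germ-free rectum and 245.2, 55.8 and 41.0 in conventional rectum. Ifit1 gave 208.3, 31.0 and 38.8 in germ-free rectum and 246.6, 31.3 and 65.1 in conventional rectum. For Igtp and Ifit1 a single array stood above the others in each state, germ-free rectum 1 and conventional rectum 1, which are the rectal libraries with gastric or small-intestinal markers. Irgm1 gave 153.3, 82.2 and 70.3 in germ-free rectum and 119.3, 63.9 and 50 in conventional rectum, with its highest value in each state on the same arrays. Gbp2 gave 206.1, 179.6 and 62.2 in germ-free rectum and 96.1, 115.1 and 110.6 in conventional rectum. The conventional values lay inside the wide germ-free range. Isg15 gave 284.5, 122.8 and 170.0 in germ-free rectum and 210.6, 162.3 and 196.2 in conventional rectum, a log2 difference of -0.06 ± 0.39 (SE). Irf7 by its first probe set gave 325.4, 176.6 and 372.7 in germ-free rectum and 321.6, 229.9 and 311.1 in conventional rectum, a log2 difference of -0.03 ± 0.54 (SE). The direction in rectum turned on them: 6 of 9 differences were positive with all arrays, 9 of 9 without the 3 opposed libraries, and 4 of 9 without the 5. Without the 3, 2 of 9 members were higher on all germ-free rectum arrays without overlap, as were 10.8% of all probe sets.

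Averaged over the 4 regions, 0 of 9 members passed limma's test of germ-free minus conventional, when 1.68% of all probe sets were called. Only the second Irf7 probe set had an unadjusted p under 0.05 (0.0344, adjusted limma p 0.237), with a log2 difference of 0.34 ± 0.15 (SE). Its highest germ-free signal came from array 3 in each region, at 202.8, 177.2, 169.9 and 276.5, and these 4 arrays had 17.5% to 21.5% of their probe sets under the floor, toward the low end of the series. The first Irf7 probe set gave 0.25 ± 0.27 (SE). Isg15 gave -0.16 ± 0.19 (SE, 95% interval -0.57 to 0.24), and Gbp3 gave 0.11 ± 0.17 (SE). The F test that the status effect differed between regions also called 0 of 9 members (0.0221% of all probe sets called). With all arrays the lowest unadjusted p among the members was that of Gbp3 at 0.0229, with an adjusted limma p of 0.904. Each other member was at an unadjusted p of 0.133 or above. Without the 3 opposed libraries, limma's F test gave an unadjusted p of 0.0105 for Igtp, 0.0201 for Gbp3 and 0.0477 for Irgm1. Their adjusted p were 0.751, 0.817 and 0.887, and each other member was at an unadjusted p of 0.117 or above.

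Between regions, with both states averaged, 3 of the 9 tested probe sets differed between jejunum and corpus at a threshold that 32.9% of all probe sets passed: Irf7 and Isg15 were higher in jejunum, and Gbp2 was lower there. Irf7 by its first probe set averaged 235 ± 26.6 in jejunum and 74.2 ± 80.1 in corpus (SD, n = 6 each), a 4.54-fold higher level on the floored scale (log2 difference 2.18 ± 0.38 SE, adjusted limma p 0.000207). All 6 jejunum arrays lay between 196.7 and 270.3. In corpus the only array in that range was germ-free corpus 3 at 229.7, and without the 3 opposed libraries the fold was 6.09. The second Irf7 probe set averaged 129 ± 26.3 in jejunum and 114 ± 44.8 in corpus (SD, n = 6 each), a log2 difference of 0.23 ± 0.21 (SE, adjusted limma p 0.451), so the probe sets of this gene disagreed. The gap between jejunum and corpus in the first probe set did not continue down the tract: it averaged 269 ± 75.7 in descending colon and 290 ± 72.1 in rectum (SD, n = 6 each), and neither step passed the test.

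Isg15 averaged 121 ± 50.3 in corpus, 210 ± 49.4 in jejunum, 178 ± 18.6 in descending colon and 191 ± 54.9 in rectum (SD, n = 6 each). The jejunal level was 1.88-fold higher than that of corpus (log2 difference 0.91 ± 0.27 SE, adjusted limma p 0.0143), and jejunum, descending colon and rectum did not differ beyond their spread. This call was lost without conventional corpus 3, the corpus array with 76.9, where the adjusted limma p was 0.0502. Within either state alone it was also not called, with a log2 difference of 1.02 in germ-free mice (adjusted limma p 0.0651) and 0.80 in conventional mice (adjusted limma p 0.166).

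Gbp2 had its lowest level in jejunum. It averaged 139 ± 25.2 in corpus, 62.0 ± 34.2 in jejunum, 135 ± 36.0 in descending colon and 128 ± 54.0 in rectum (SD, n = 6 each). Jejunum was 2.45-fold lower than corpus (log2 difference -1.29 ± 0.28 SE, adjusted limma p 0.00147), and descending colon was 2.32-fold higher than jejunum (log2 difference 1.21 ± 0.28 SE, adjusted limma p 0.0092). The highest jejunal array, at 128.1, is the one with hindgut markers. In germ-free mice alone Gbp2 was 3.61-fold lower in jejunum than in corpus (adjusted limma p 0.00349), while in conventional mice alone the log2 difference was -0.73 (adjusted limma p 0.229). Whether this step differs between the states was not tested on its own, and the F test for Gbp2 gave an unadjusted p of 0.19 (adjusted limma p 0.937).

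Gbp2 was the 1 member of 9 called between descending colon and jejunum, where 14.4% of all probe sets were called. Gbp3, its neighbour on chromosome 3, had a log2 difference of 0.61 ± 0.24 (SE) in the same direction, with an adjusted limma p of 0.103. In germ-free mice alone Gbp3 was 2.00-fold lower in jejunum than in corpus (adjusted limma p 0.0429) and 2.56-fold higher in descending colon than in jejunum (adjusted limma p 0.0167). Between rectum and descending colon, 0 of 9 members were called by limma and 0 had an unadjusted p under 0.05, as 0% of all probe sets were called. The largest of these 9 log2 differences, that of Igtp, was 0.24 ± 0.43 (SE).

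The other members had no regional step past the test with all arrays. Ifit1 averaged 29.6 ± 18.8 in corpus, 87.5 ± 85.0 in jejunum, 82.1 ± 65.0 in descending colon and 104 ± 97.6 in rectum (SD, n = 6 each). Its spread rested on single arrays above 200 in 4 of the 8 groups. Jejunum minus corpus was 1.03 ± 0.59 on the log2 scale (SE, adjusted limma p 0.193), and without the 3 opposed libraries Ifit1 was called as well, 2.89-fold higher in jejunum (adjusted limma p 0.0285). Ifit3 averaged between 38.0 and 48.6 in the 4 regions, and Irgm1 between 58.4 and 92.5. Ifit2 had signals of 1.5 to 32.2 on 23 arrays and 77.0 on germ-free rectum 1, with 20 of 24 arrays under the floor, so its level in these tissues was near or below what the array measured. Corpus differed from the other regions in squamous epithelium as well: summed signals of 13 keratin and cornified-envelope probe sets ran from 393 to 851 in jejunum, against 46990 to 60368 in 5 corpus libraries and 896 in germ-free corpus 3. Of 10 tested probe sets of the columnar epithelium list, 8 were called higher in jejunum than in corpus (median log2 difference 1.08), and 9 of 11 smooth muscle probe sets were called lower (median -1.19). In descending colon against jejunum, 7 of 11 smooth muscle probe sets were called higher (median 0.74) and 0 of 10 epithelial ones were called. The part of these tissues in the regional differences of Irf7, Isg15, Gbp2 and the pathway lists was not tested.

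**Figure D3:**
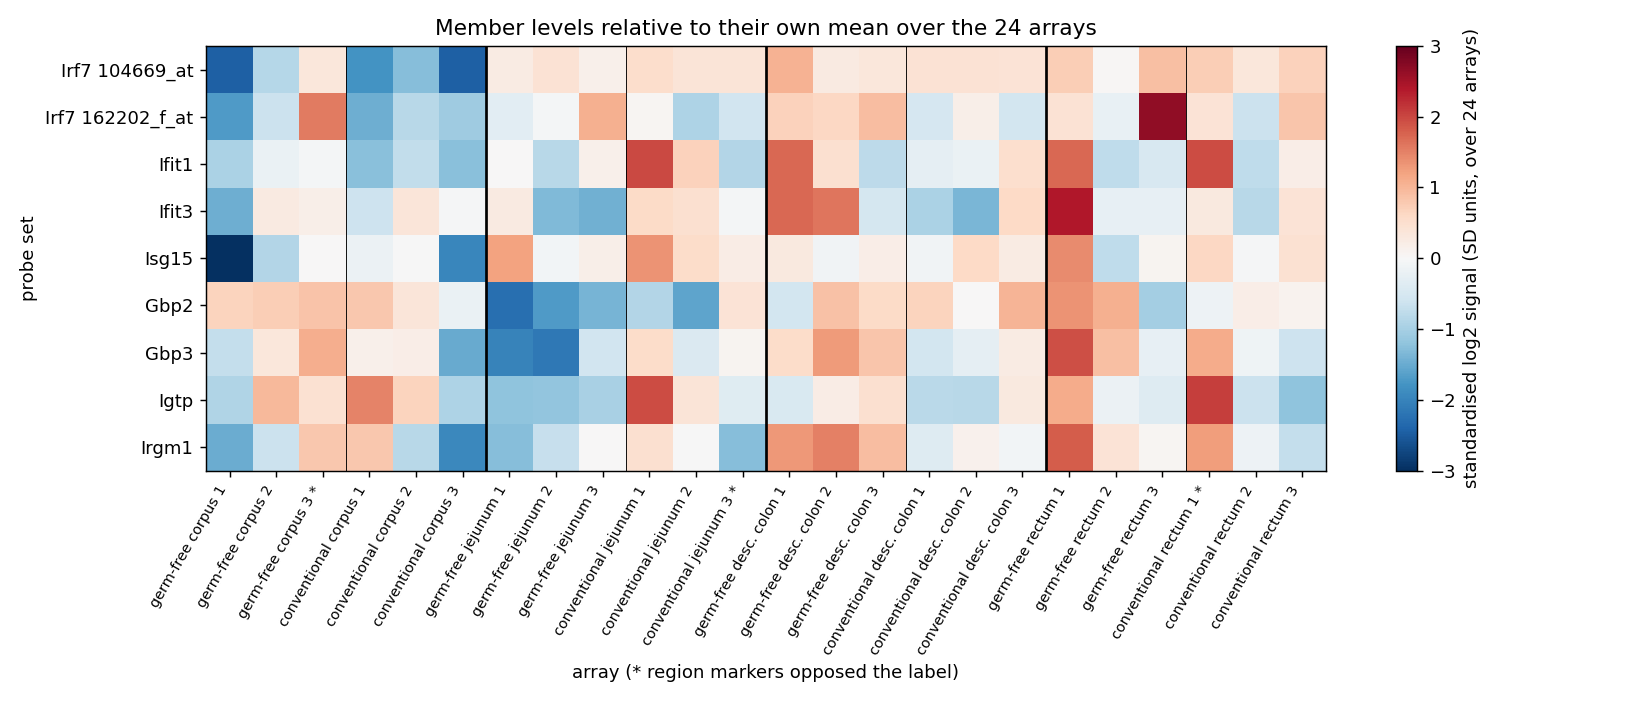
Standardised log2 signal (SD units over the 24 arrays) of the 9 tested probe sets on each array, by region from corpus to rectum and, within a region, germ-free left of conventional; an asterisk marks the 3 libraries whose region markers opposed their labels. Germ-free corpus 1 is low for most members, and germ-free rectum 1 and conventional jejunum 1 are high for most.

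The members varied together across arrays to differing extents. Over the 24 arrays, which share their regions and states, the 36 pairs of tested probe sets had a median Pearson r of 0.43, from -0.28 to 0.79. Against the mean standardised profile of all 9, which contains each of them, r was highest for Irgm1 at 0.87 and Gbp3 at 0.84, and lowest for Gbp2 at 0.28. Germ-free corpus 1 was the lowest of its group for 9 of 9 members, and germ-free corpus 3 and germ-free rectum 1 were the highest of theirs for 7 of 9. The 8 probe sets outside the members with the most similar profile, of 8092 ranked, were those of AW112010 (r = 0.84), Ifih1 (0.79), Adamdec1 (0.79), Rad21 (0.78), Tm9sf2 (0.77), Pts (0.76), Amot (0.76) and BC005537 (0.75). Ifih1 encodes MDA5, a cytosolic sensor of viral RNA, and is itself on the list of type I interferon targets described next.

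The rest of the pathway was read from 4 lists. Of the interferons themselves, 7 of 10 listed genes were on the array and 2, Ifna5 and Ifna9, passed the filter, through probe sets of a type that can match several interferon alpha genes. Ifng did not exceed 12.2 on any array and Ifnb1 did not exceed 36.1. Of the receptors and signalling genes, 16 of 20 were tested through 17 probe sets. Other type I interferon targets were tested for 22 of 42 genes (27 probe sets), and other interferon gamma targets for 18 of 30 genes (27 probe sets). Limma called 0 probe sets of these lists between germ-free and conventional mice in any region or in the mean over regions. In that mean, 0 ligand, 1 receptor or signalling, 7 type I and 4 interferon gamma probe sets had an unadjusted p under 0.05, as did 1632 of all 9033. Within a region no list had more than 3 such probe sets.

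The median log2 difference in jejunum was -0.27 for the interferon gamma targets, of which 18 of 27 were negative, -0.04 for the type I targets, and -0.03 for receptors and signalling. In the mean over regions, the receptor and signalling genes of lowest p were Irf9, a DNA-binding interferon regulatory factor (log2 difference 0.31 ± 0.12 SE), Socs3, a feedback inhibitor of JAK kinases (-0.50 ± 0.25 SE), Jak2 (0.22 ± 0.11 SE) and Ifnar1, a chain of the type I receptor (0.24 ± 0.14 SE). Among type I targets they were Ifi202b (0.78 ± 0.22 SE, adjusted limma p 0.0837), Ifitm2, Ifi204 and Samhd1, the last 3 with log2 differences of 0.58 to 0.76. For Ifi204 and Samhd1 another probe set had the opposite sign, at -0.40 and -0.38. The Ifi202b probe set passed the filter through germ-free arrays only, with no conventional array above 30.3. The same held for the Ifi204 probe set of lowest p, with no conventional array above 27.9. For the Samhd1 probe set of lowest p the highest conventional signal was 51.6, at the edge of the filter. Among interferon gamma targets, Wars1, a tryptophan tRNA synthetase, had -0.47 ± 0.14 (SE, adjusted limma p 0.101) and Tapbp, which loads peptides onto MHC class I, had -0.44 ± 0.21 (SE). Ido1, a tryptophan-degrading enzyme, and Psme1, a proteasome activator, had 0.87 and 1.00 in 1 probe set each. Another probe set gave -0.09 for Ido1 and 0.01 for Psme1. The Psme1 probe set at 1.00 also passed the filter through germ-free arrays only, with no conventional array above 23.9. The 2 ligand probe sets, Ifna9 and Ifna5, had 0.45 and 0.27.

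In jejunum against corpus, 7 receptor and signalling probe sets were called higher and 0 lower, 7 type I targets higher and 4 lower, and 10 interferon gamma targets higher and 2 lower. Of all 9033 probe sets, 1236 were called higher and 1734 lower, 32.9% together. List medians were 0.30, 0.32 and 0.27 on the log2 scale, against -0.10 over all probe sets tested and 0.05 over the 9 members. The examples that follow were picked from the called genes after their values were seen. Higher in jejunum were the transcription factors Irf1 (2.93-fold) and Irf8 (3.16-fold) and the receptor chain Ifngr2 (2.86-fold). So were the immunoproteasome subunits Psmb8 (3.14-fold), Psmb9 (3.23-fold) and Psmb10 (3.46-fold) and the peptide transporter chain Tap2 (3.16-fold). Lower in jejunum were Ifi27 (2.53-fold), Ifitm3, a membrane protein that blocks virus entry (1.74-fold), and both probe sets of Iigp1, an immunity-related GTPase of the family of Igtp (2.01-fold and 2.80-fold).

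In descending colon against jejunum, 0 receptor and signalling probe sets were called higher and 2 lower, 2 type I targets higher and 4 lower, and 0 interferon gamma targets higher and 3 lower. Of all 9033 probe sets, 822 were called higher and 482 lower, 14.4% together, against 2 of 17 receptor and signalling, 6 of 27 type I and 3 of 27 interferon gamma probe sets. The genes named next, again picked after their values were seen, describe single probe sets. Lower in descending colon were Ube2l6, the conjugating enzyme for Isg15 (4.23-fold), Tap2 (2.17-fold) and Ido1 (2.20-fold, by the second of its probe sets above). Ifi202b was 2.03-fold higher and Isg20, an antiviral exonuclease, 2.50-fold higher. The Ifi202b step lay mainly in germ-free mice, with 60.7 to 148 in descending colon and 2.5 to 4.9 in jejunum. In conventional mice Ifi202b was 13.2 to 26 in descending colon and 3 to 18.9 in jejunum, near or under the floor.

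**Figure D4:**
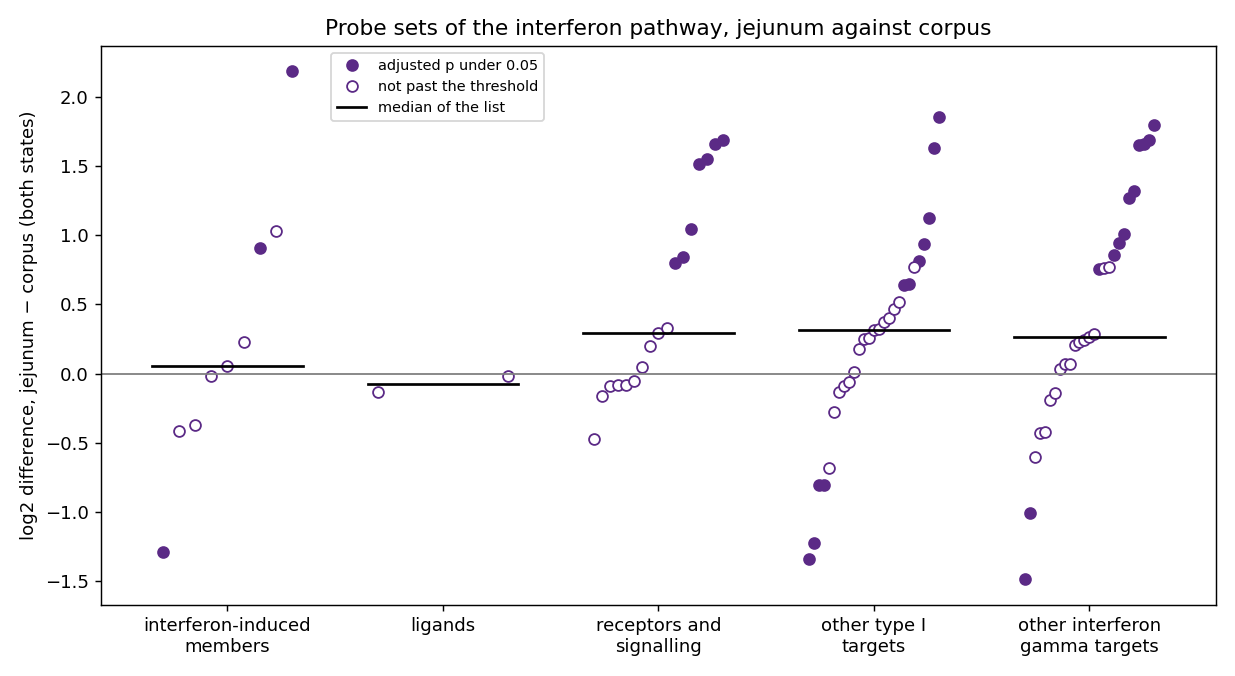
Log2 difference, jejunum minus corpus with both states averaged, for each tested probe set of the members and of the 4 pathway lists, ordered by size within a list; filled points had an adjusted p under 0.05 and bars are list medians. Points of the members run from -1.29 for Gbp2 to 2.18 for Irf7, and most filled points of the other lists lie above 0.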

How the data were processed

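Each of the 24 samples has 1 deposited column of linear signal intensity, scaled by the authors: averaged without the extreme probe sets, every array gave 200.1. The signal algorithm, software and detection calls are not given in the sources used here. Probe sets were named by the platform annotation, and several probe sets of a gene were not averaged. The deposited scale was kept. Values under 21.2, the 25th percentile, were raised to it before log2, which understates folds of dim genes. After removal of 66 controls, the 9033 probe sets with at least 3 arrays above 51.5 (the 40th percentile) were tested.

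Group means were fitted to the whole table with limma 3.58.1 in R 4.3.3, letting the prior variance follow intensity. Tests were two-sided, Benjamini-Hochberg adjustment ran over all 9033 probe sets, and a call needed an adjusted p under 0.05. The number of arrays limits the precision. Members and lists were chosen with earlier results of these data known. All members are named, with up to 4 genes of each list (lowest p in the mean status comparison) and the 8 most similar probe sets. Alternatives covered floor, filter, scaling, variance trend, a replicate block (statmod 1.5.0), fits to fewer arrays and omission of each array. Repeats without 3 or 5 libraries were chosen after seeing the data. The fit and the calls of germ-free minus conventional jejunum were tested on simulated data with independent arrays. That check did not cover the floor, the filter, the F test or the comparisons between regions.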

Additional observations from a re-analysis of the deposited data

Results flagged for a closer look

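Gbp3 stood on opposite sides of the status comparison in 2 regions. All 3 germ-free arrays lay under all 3 conventional arrays in jejunum (log2 difference -0.90), and all 3 germ-free arrays lay above all 3 conventional arrays in descending colon (log2 difference 0.60). Limma's F test over the 4 regions gave Gbp3 an unadjusted p of 0.0229 and an adjusted p of 0.904, so the difference did not pass the correction. The contrast of these 2 regions alone was not tested.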

How the results depend on the processing

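The 4 called member differences kept their sign under the planned settings and without 3 or 5 libraries. Of all 72 member differences, 12 changed sign without the 3 libraries and 19 without the 5, none of them called and the largest 0.52 in size on the log2 scale (Ifit1 in descending colon, -0.18 without the 5). The count of members called between germ-free and conventional mice stayed at 0 in jejunum, descending colon, rectum, the mean over regions and the F test. In corpus it was 0 to 1 when single arrays were left out. The 3 calls of jejunum against corpus ranged from 2 to 3 without single arrays and were 1, Irf7, in conventional arrays alone. The single call of descending colon against jejunum ranged from 1 to 2 without single arrays, with Gbp3 added without germ-free jejunum 3 (adjusted limma p 0.0443). It was 0 in conventional arrays alone, where Gbp2 had a log2 difference of 0.91 (adjusted limma p 0.428), and 2 in germ-free arrays alone, with Gbp3. The cause of these changes was not tested, beyond the smaller number of arrays in each. Whether equal numbers mark one mouse is not stated. Of 36 pairs with the same state and number, 16 had deviations correlated above 0.1, with a range over the pairs from -0.50 to 0.67. With 3 candidate arrays in each comparison, 50 of 72 comparisons put the own number first. The source of these correlations was not tested. The main tests did not take equal numbers as pairs and treated the arrays as independent. With a replicate block the counts of called members were the same, 3 for jejunum against corpus and 1 for descending colon against jejunum. Signals near the floor limit Ifit1, Ifit2 and Ifit3.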
